A study of Mus musculus with 24 samples.

Results

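The expression of 10 genes is described here across mouse livers given ethanol, a plasticiser, or both: Nfe2l2 and Keap1, which encode the antioxidant regulator NRF2 and its repressor, and NRF2 targets, among them Nqo1, Srxn1, Txnrd1, Gclc, Gclm, Gsr and Hmox1. They were taken by gene symbol from a list of NRF2 pathway and glutathione synthesis genes. All 10 had a value above 0 in each of the 24 libraries. The 9 genes named here are described one by one, and counts and medians cover all 10. The list makes up 10 of 17537 genes seen in at least 1 library and 10 of the 10697 genes tested.

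NRF2 is a transcription factor that KEAP1, an adaptor of a ubiquitin ligase, marks for degradation in unstressed cells. Electrophiles and oxidants modify cysteines of KEAP1, NRF2 then accumulates with no need for more of its own mRNA, and it binds antioxidant response elements with a small MAF protein. Its targets make glutathione, reduce oxidised glutathione and thioredoxin, supply NADPH and detoxify quinones, and the liver, where many foreign compounds are conjugated to glutathione, is a main site of this response.

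RNA was sequenced from livers of male C57BL/6 mice in 4 groups of 6 libraries each. The vehicle group was gavaged with 0.5% CMC, the ethanol group with ethanol at 1 g/kg body weight, and the DEHP group with di(2-ethylhexyl) phthalate, a plasticiser that acts on rodent liver as a peroxisome proliferator, at 2500 mg/kg. The combination group received both agents at these doses. The labels name CMC for the vehicle group alone, so an effect of the carrier and an effect of a treatment cannot be told apart if the other groups were not given it. They describe 12 mice per group, tie no library to an animal and give neither a treatment time nor a time of collection, so the spread behind every p-value is that of these libraries and may be partly technical.

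Total expected counts, the reads estimated for each gene, ranged from 7324793 to 8016662 per library. The 8 hepatocyte markers, Alb among them, were above 0 in every library. The labelled DEHP exposure showed in 16 targets of PPARalpha, the nuclear receptor that peroxisome proliferators activate. Of these, 13 rose in DEHP against vehicle and none fell. Of all genes tested, 26% had an adjusted p below 0.05, and 14.4% were higher at that threshold. Ehhadh, an enzyme of peroxisomal fatty acid oxidation, was at 98.1 ± 23.4 FPKM in vehicle and 2457 ± 803 FPKM in DEHP (SD, n = 6, edgeR log2 change 4.63 ± 0.24 SE, adjusted p = 4.15e-13). FPKM scales a gene's reads by transcript length and library size, so levels can be compared between genes. Vehicle replicate 1 and combination replicate 6 held skeletal muscle transcripts (8 markers summing to 6083 and 4446 FPKM, against at most 4.2 FPKM elsewhere), and DEHP replicate 6 held transcripts of exocrine pancreas (9 markers summing to 595 FPKM, against at most 38.2 FPKM elsewhere). DEHP replicate 1 had the highest neutrophil sum (54.8 FPKM, others at most 9.32) and the highest sum of macrophage markers (513 FPKM, others at most 384). The summed hepatocyte markers were 54135 to 74442 FPKM in vehicle, 62847 to 76009 in ethanol, 43018 to 52254 in DEHP and 44085 to 49408 FPKM in the combination, with 5 of 8 called lower and 1 higher in DEHP against vehicle and 6 lower and 1 higher in the combination. Of all 10697 genes tested, 1241 were called lower in DEHP and 1865 in the combination. The 5 adipocyte markers summed to 7.78 to 66.8 FPKM in vehicle, 3.3 to 7.35 in ethanol, 17.7 to 152 in DEHP and 24.5 to 124 FPKM in the combination, Adipoq being at 0 in 19 of 24 libraries. The part of these shifts in the changes reported here was not tested. In whole liver, fewer cells of a type and less RNA per cell cannot be told apart.

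The glutathione synthesis genes were the most abundant of the 10 per length. Gclc averaged 97.1 FPKM over the 24 libraries and Gclm 75.5 FPKM, followed by Txnrd1 at 42.8, Gsr at 33.2, Keap1 at 25.3, Srxn1 at 20 and Nfe2l2 at 19.8 FPKM. Hmox1 averaged 8.58 FPKM and Nqo1 4.36 FPKM. The low level of Nqo1 corresponded to 12 to 93 expected counts per library, which limits the precision of its values.

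**Figure D1:**
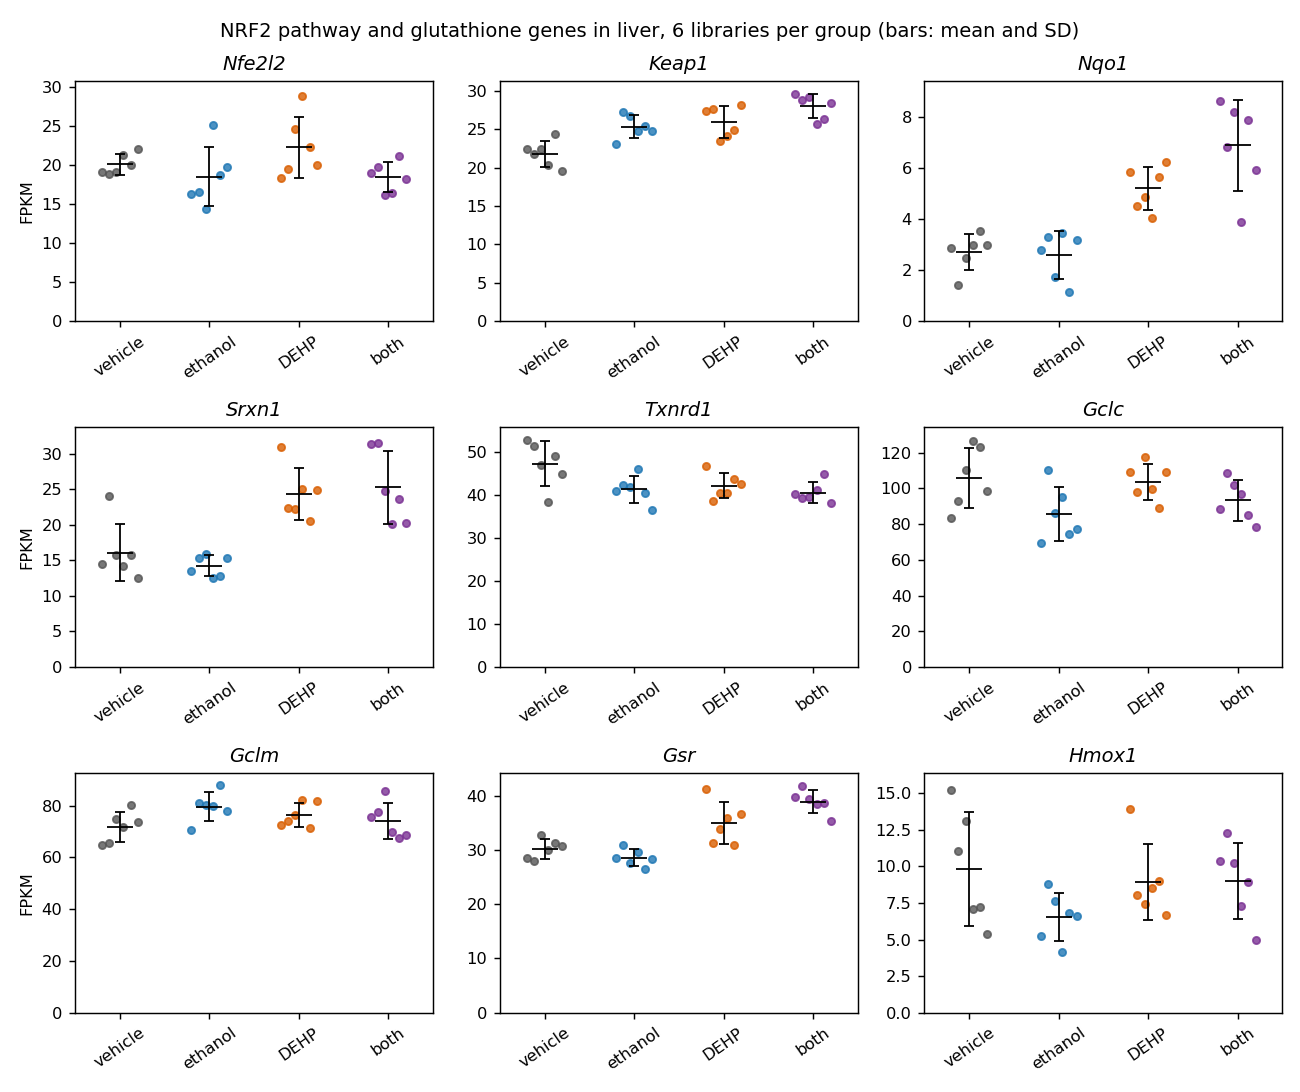
FPKM of each of 9 genes (vertical axes from 0) in vehicle, ethanol, DEHP and the combination of both; each point is 1 of 6 libraries, and bars give the mean and SD. Nqo1 lies between 1.13 and 3.54 FPKM in vehicle and ethanol and between 3.88 and 8.65 FPKM in the groups with DEHP, whereas Gclc and Gclm overlap in every pair of groups.

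After DEHP, the quinone reductase gene Nqo1 and the sulfiredoxin gene Srxn1 rose 1.89-fold and 1.49-fold over vehicle, and the repressor gene Keap1 and the glutathione reductase gene Gsr rose 1.16-fold and 1.15-fold. That made 4 of 10 genes called at an adjusted p below 0.05, against 26% of all genes tested, and as all 4 were higher, 14.4% is the share of all genes called higher. Nqo1 was the 1 gene of the 10 whose libraries did not overlap with vehicle, as was so for 9.96% of all genes. The median log2 change of the 10 genes was 0.11, and that of all genes tested was -0.02. Neither subunit of glutamate-cysteine ligase was called.

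After the combination, the same 4 genes were called higher against vehicle: Nqo1 at 2.53-fold, Srxn1 at 1.57-fold, Gsr at 1.29-fold and Keap1 at 1.25-fold. Txnrd1, cytosolic thioredoxin reductase, fell to 0.85-fold. The 5 called of 10 stand beside 36.8% of all genes called in this comparison, 19.3% higher and 17.4% lower, and the 3 genes without overlap (Nqo1, Gsr and Keap1) beside 16.1% of all genes. The median log2 change was 0.11 for the 10 genes and -0.01 for all genes.

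After ethanol alone, Keap1 rose 1.19-fold and Gclm, the modifier subunit of glutamate-cysteine ligase, rose 1.16-fold over vehicle. These were the 2 called of 10, against 28.8% of all genes called (14.2% higher), and no gene of the 10 separated the groups, against 10.7% of all genes. Nqo1 stood at 1.00-fold, and the median log2 change was -0.04 against -0.01 for all genes. On TPM values the median of all genes was -0.15, and 481 genes were called higher and 2764 lower, in place of 1524 and 1555.

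**Figure D2:**
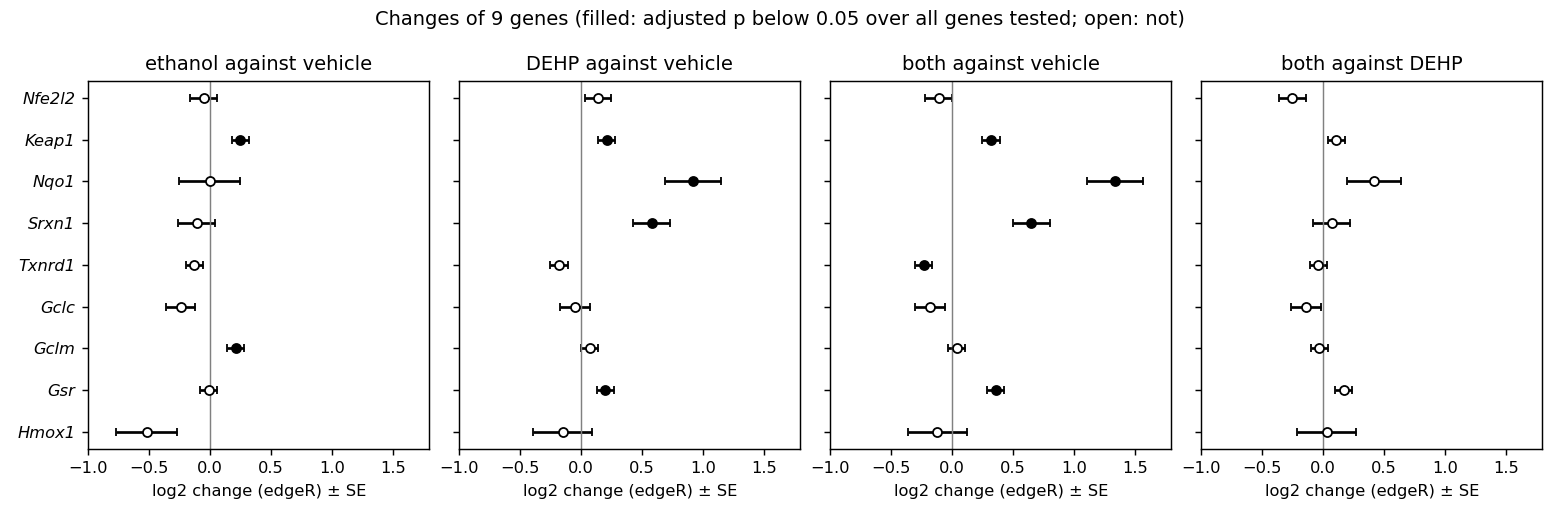
Log2 change of each of the 9 genes (horizontal axes, edgeR, points with SE bars) in 4 comparisons; filled points have an adjusted p below 0.05 over all genes tested. Nqo1, Srxn1, Gsr and Keap1 are filled in DEHP and in the combination against vehicle, and Txnrd1, which fell, in the combination against vehicle. Keap1 and Gclm are filled in ethanol against vehicle, and no gene is filled in the combination against DEHP.

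The core of the antioxidant response element, TGACNNNGC, was looked for on both strands of the promoter windows that RefSeq gives for these genes on GRCm38.p6, from 250 bases before to 50 bases after a start site. RefSeq windows were matched for 7 of the 10 genes (among them Nfe2l2, Keap1, Nqo1, Srxn1, Gclm and, with 3 windows, Txnrd1), and 5 of the 7 held the letters, against 14% of the 27025 genes with a window and 12.4% of all 32851 windows. The sites of 3 genes upstream of the start are shown with 30 bases each, read on the strand that carries the motif, with the motif in capitals.
Nfe2l2, chr2:75704884-75704913, minus strand: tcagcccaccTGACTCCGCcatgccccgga
Gclm, chr3:122245413-122245442, minus strand: ctcgtgagagtTGACGGTGCgcccgggagc
Txnrd1, chr10:82859104-82859133, minus strand: ccgtgtcagaaTGACAAAGCaaaaatccag
In Srxn1 the match lay 29 to 37 bases after the start. In Txnrd1 1 of the 3 windows held it. Of the 3 genes shown, none rose with DEHP, Gclm rose with ethanol, and Txnrd1 fell with the combination. Srxn1, which holds a match but is not among the 3 shown, rose with DEHP and with the combination. A match is a run of letters and was not tested for binding here.

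The 2 genes with the largest rises are shown with the 250 bases before their start sites. Srxn1 carries a second form of the element, TGANTCAGC, which was searched for after the sequence had been seen; it overlaps the binding site of AP-1 factors and is in capitals below. It occurs in 1.19% of all windows and in 1 of the 7 genes. The Nqo1 window holds neither run of letters, which says nothing of elements farther away.
Srxn1, chr2:152105274-152105523, plus strand: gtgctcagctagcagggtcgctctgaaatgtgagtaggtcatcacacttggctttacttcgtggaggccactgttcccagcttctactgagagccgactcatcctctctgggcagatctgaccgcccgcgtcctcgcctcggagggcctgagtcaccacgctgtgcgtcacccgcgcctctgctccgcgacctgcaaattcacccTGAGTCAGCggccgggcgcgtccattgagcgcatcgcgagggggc
Nqo1, chr8:107403206-107403455, minus strand: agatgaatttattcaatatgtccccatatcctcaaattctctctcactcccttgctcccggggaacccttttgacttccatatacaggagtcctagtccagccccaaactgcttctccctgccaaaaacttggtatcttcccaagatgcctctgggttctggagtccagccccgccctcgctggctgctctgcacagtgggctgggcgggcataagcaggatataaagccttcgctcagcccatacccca

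Nfe2l2 (NCBI gene 18024, chromosome 2, 75675513 to 75704663, GRCm38.p6), the gene of NRF2 itself, was not called in any comparison. In vehicle its lowest, median and highest values were 18.8, 19.6 and 22.1 FPKM, in ethanol 14.4, 17.7 and 25.2, in DEHP 18.4, 21.1 and 28.9, and in the combination 16.2, 18.6 and 21.1 FPKM. All 4 groups overlapped, with means of 20.1 ± 1.34, 18.5 ± 3.78, 22.3 ± 3.93 and 18.5 ± 1.93 FPKM (SD, n = 6). The largest difference was that of the combination against DEHP (log2 change -0.25 ± 0.11 SE, edgeR adjusted p = 0.394).

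Keap1 (gene 50868, chromosome 9, 21229730 to 21239332), the repressor and substrate adaptor, was called higher in all 3 treated groups against vehicle. Its lowest, median and highest values were 19.6, 22.1 and 24.4 FPKM in vehicle, 23.1, 25.1 and 27.3 in ethanol, 23.5, 26.2 and 28.2 in DEHP, and 25.7, 28.6 and 29.6 FPKM in the combination. Every treated library lay above the vehicle mean of 21.8 ± 1.68 FPKM, and the combination did not overlap with vehicle. The log2 changes were 0.25 ± 0.07 for ethanol (edgeR adjusted p = 0.0127), 0.21 ± 0.07 for DEHP (adjusted p = 0.0325) and 0.32 ± 0.07 for the combination (adjusted p = 0.0013). The treated groups were ordered ethanol (25.4 ± 1.51 FPKM), DEHP (26 ± 2.04) and combination (28 ± 1.59), and no pair of them was called. The ethanol call did not hold on TPM values (log2 change 0.11, limma adjusted p = 0.272) or with scaling by library size alone (0.17, adjusted p = 0.0672). The DEHP call held in 10 of 18 alternative settings. Among the settings that lost it was the fit without the 3 libraries that held muscle or pancreas transcripts (0.17, adjusted p = 0.149). It was also lost without DEHP replicate 6 alone (0.18, adjusted p = 0.0926), and without vehicle replicate 1, vehicle replicate 2 or DEHP replicate 1 (adjusted p = 0.0538, 0.0519 and 0.0771).

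Nqo1 (gene 18104, chromosome 8, 107388225 to 107403205) encodes NAD(P)H quinone dehydrogenase, which reduces quinones by a pair of electrons. Its lowest, median and highest values were 1.43, 2.92 and 3.54 FPKM in vehicle, 1.13, 2.97 and 3.48 in ethanol, 4.06, 5.28 and 6.26 in DEHP, and 3.88, 7.38 and 8.65 FPKM in the combination. Every library with DEHP was above every library without it, and vehicle and ethanol covered nearly one range. The means were 2.71 ± 0.714, 2.6 ± 0.952, 5.21 ± 0.852 and 6.91 ± 1.78 FPKM (SD, n = 6).

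For Nqo1, the log2 change was 0.92 ± 0.23 in DEHP against vehicle (edgeR adjusted p = 0.00487) and 1.34 ± 0.23 in the combination against vehicle (adjusted p = 7.09e-05). Over all 18 alternative settings the adjusted p stayed between 0.000897 and 0.0246 for DEHP and between 1.33e-07 and 0.000425 for the combination. With the FPKM minimum of 5, Nqo1 was tested because of its level in the libraries with DEHP, so that setting is no separate support. The combination mean lay above that of DEHP, but the groups overlapped and the difference was not called (0.42 ± 0.22, adjusted p = 0.494). Nor was the interaction, the ethanol change with DEHP minus the ethanol change without it (0.42 ± 0.33, adjusted p = 0.468).

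Srxn1 (gene 76650, chromosome 2, 152105524 to 152111376) encodes sulfiredoxin, which restores overoxidised peroxiredoxins. Vehicle libraries had lowest, median and highest values of 12.5, 15.1 and 24 FPKM, ethanol libraries of 12.5, 14.4 and 15.9, DEHP libraries of 20.5, 23.6 and 30.9, and combination libraries of 20.2, 24.2 and 31.5 FPKM. Every library with DEHP exceeded every ethanol library, and it exceeded every vehicle library but 1, vehicle replicate 2. The log2 change against vehicle was 0.58 ± 0.15 for DEHP (edgeR adjusted p = 0.00533) and 0.65 ± 0.15 for the combination (adjusted p = 0.00126), from a mean of 16.1 ± 4.05 FPKM to 24.3 ± 3.66 and 25.3 ± 5.11 FPKM. Without vehicle replicate 2 the DEHP change was 0.73 (adjusted p = 0.000289). DEHP and the combination did not differ beyond their spread (0.07 ± 0.15, adjusted p = 0.897).

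Txnrd1 (gene 50493, chromosome 10, 82833951 to 82897724) encodes the cytosolic reductase of thioredoxin. The vehicle libraries ran from 38.4 through a median of 48 to 52.9 FPKM and those of the combination from 38.1 through 39.9 to 45 FPKM. All 6 combination libraries lay below the vehicle mean of 47.3 ± 5.25 FPKM, although the groups overlapped: vehicle replicate 4 at 38.36 FPKM lay among the combination libraries, and vehicle replicate 6 at 44.94 FPKM lay just below the highest of them at 44.98 FPKM. Txnrd1 fell by 0.23 ± 0.07 on the log2 scale in the combination (edgeR adjusted p = 0.0168). Without the 3 libraries of other tissues the change was -0.20 (adjusted p = 0.0557), and with each library's trend on gene length removed it was -0.18 (adjusted p = 0.0572). Ethanol (41.3 ± 3.05 FPKM, log2 change -0.13 ± 0.07, adjusted p = 0.194) and DEHP (42.2 ± 2.89 FPKM, -0.18 ± 0.07, adjusted p = 0.0666) had values on the same side of vehicle and were not called. The DEHP change passed in 3 of 18 alternatives, without DEHP replicate 1 (-0.22, adjusted p = 0.0333), with DESeq2 (-0.19, adjusted p = 0.0392) and with an FPKM minimum of 5 (-0.23, adjusted p = 0.0168). The ethanol change passed in 2 of 18, with library size alone (-0.21, adjusted p = 0.0389) and on TPM values (-0.29, adjusted p = 0.00822). Of the 8 NRF2 targets of the set, Txnrd1 was the 1 called lower, in a comparison in which Nqo1, Srxn1 and Gsr were called higher.

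Gclc (gene 14629, chromosome 9, 77754535 to 77794489) and Gclm (gene 14630, chromosome 3, 122245487 to 122267215) encode the catalytic and modifier subunits of glutamate-cysteine ligase, the rate-limiting enzyme of glutathione synthesis. The lowest, median and highest values of Gclc were 83.7, 104.4 and 126.5 FPKM in vehicle, 69.5, 81.8 and 110.6 in ethanol, 89, 104.4 and 117.4 in DEHP, and 78.3, 92.7 and 108.9 FPKM in the combination. Gclc was not called in any comparison. Its largest difference, ethanol against vehicle (85.6 ± 15.2 against 105.8 ± 17 FPKM, log2 change -0.24 ± 0.12, edgeR adjusted p = 0.114), passed in 6 of 18 alternative settings, among them without vehicle replicate 1 (-0.32, adjusted p = 0.0407).

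Gclm was called in 1 comparison, ethanol against vehicle. From lowest through median to highest it measured 64.9, 72.8 and 80.1 FPKM in vehicle, 70.5, 79.9 and 88 in ethanol, 71.4, 75.4 and 82.4 in DEHP, and 67.3, 72.8 and 85.8 FPKM in the combination. The groups overlapped throughout, and 5 of 6 ethanol libraries lay above the vehicle mean of 71.8 ± 5.81 FPKM. Gclm rose in ethanol to 79.6 ± 5.64 FPKM (log2 change 0.21 ± 0.07, edgeR adjusted p = 0.0306). This call held in 8 of 18 alternative settings, with adjusted p from 0.0178 to 0.687, and was lost without vehicle replicate 1 (0.17, adjusted p = 0.0977) and without vehicle replicate 2 (0.20, adjusted p = 0.069). The ethanol change of Gclm was 0.24 ± 0.10 lower on the log2 scale with DEHP than without it, which was not called (edgeR adjusted p = 0.151).

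Gsr (gene 14782, chromosome 8, 33653238 to 33698162) encodes glutathione reductase, which returns oxidised glutathione to its reduced form at the cost of NADPH. Its lowest, median and highest values were 27.9, 30.4 and 32.9 FPKM in vehicle, 26.6, 28.4 and 30.8 in ethanol, 31, 35 and 41.3 in DEHP, and 35.4, 39.1 and 41.8 FPKM in the combination. Every combination library lay above every vehicle and every ethanol library, and DEHP was above ethanol but overlapped with vehicle. Gsr rose by 0.36 ± 0.07 on the log2 scale in the combination (edgeR adjusted p = 0.000297, between 3.26e-05 and 0.00193 over 18 alternatives). In DEHP alone the change was 0.20 ± 0.07 (adjusted p = 0.0434), a call that held in 5 of 18 alternatives and was lost without vehicle replicate 1 (0.16, adjusted p = 0.113), vehicle replicate 2 (0.18, adjusted p = 0.0994), DEHP replicate 1 (0.14, adjusted p = 0.144) or DEHP replicate 6 (0.18, adjusted p = 0.104). The combination mean of 38.9 ± 2.09 FPKM and the DEHP mean of 35 ± 3.84 FPKM were not told apart after adjustment (0.17 ± 0.07, edgeR adjusted p = 0.399).

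Hmox1 (gene 15368, chromosome 8, 75093618 to 75100593) encodes heme oxygenase 1, an NRF2 target that macrophages also express as they clear red cells. Its lowest, median and highest values were 5.37, 9.13 and 15.2 FPKM in vehicle (mean 9.84 ± 3.88), 4.17, 6.71 and 8.78 in ethanol (6.54 ± 1.65), 6.7, 8.28 and 13.9 in DEHP (8.93 ± 2.56), and 4.97, 9.57 and 12.3 FPKM in the combination (9.02 ± 2.58). The vehicle libraries alone covered nearly the whole range, and no comparison was called. The lowest adjusted p against vehicle was that of ethanol (log2 change -0.52 ± 0.25, edgeR adjusted p = 0.113). The sums of 13 macrophage markers were 144 to 384 FPKM in vehicle, 174 to 301 in ethanol, 202 to 513 in DEHP and 189 to 258 FPKM in the combination, with no marker at 0 in any library. They include Slc40a1, which rose in ethanol from 22.7 to 38.2 FPKM, whereas the median log2 change of the 13 markers in ethanol was -0.11. DEHP replicate 1, with the highest sum, had the highest Hmox1 of its group, and so had ethanol replicate 2 and combination replicate 2, each with the highest sum of its own group. In vehicle the highest Hmox1 was in replicate 1 (15.21 FPKM, marker sum 251 FPKM) and the highest sum in replicate 3 (384 FPKM, Hmox1 13.09 FPKM). The part of these cells in the Hmox1 values was not tested.

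**Figure D3:**
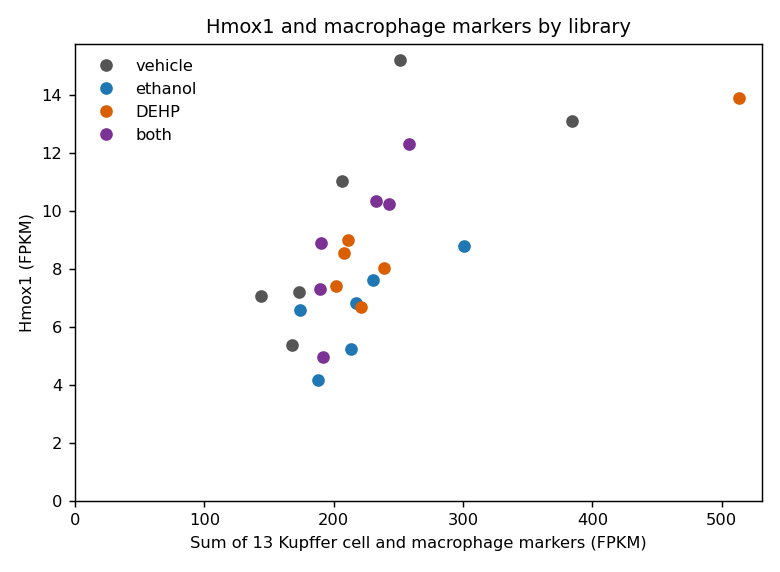
Hmox1 in FPKM (vertical axis) against the summed FPKM of 13 Kupffer cell and macrophage markers (horizontal axis), 1 point per library, coloured by group. DEHP replicate 1 stands at the right with a sum of 513 FPKM and 13.89 FPKM of Hmox1, and the 4 groups overlap on both axes.

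Adding ethanol to DEHP called none of the 10 genes, against 0.122% of all genes called (13 of 10697) and 0.664% without overlap. By edgeR, 2 of the 10 had an unadjusted p below 0.05 (Nfe2l2 and Gsr, above), beside 1159 of all 10697 genes. DESeq2 called none, but it gave Nqo1 no adjusted p in this comparison and so could not have called it. For the interaction, 0 of 10 were called against 6.41% of all genes, and DESeq2 again called 0. Gclm alone of the 10 had an unadjusted p below 0.05 in edgeR, beside 2504 of all 10697 genes. A p that misses the threshold does not show equal levels, and the standard errors of 0.07 to 0.24 in the combination against DEHP bound how fine a difference could be seen.

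Set against ethanol in place of vehicle, the same 3 genes were called in both groups with DEHP. As a count of calls in either direction, this is near the share over all genes. Nqo1, Srxn1 and Gsr were the 3 of 10 called in the combination against ethanol (27.8% of all genes called, 15.1% higher) and the 3 called in DEHP against ethanol (25.7%, 13.7% higher), all higher and all without overlap (15.7% and 12.3% of all genes). In the combination against ethanol their log2 changes were 1.34, 0.76 and 0.37, with edgeR adjusted p of 8.21e-05, 0.000342 and 0.00026. In DEHP against ethanol they were 0.92, 0.68 and 0.21, with adjusted p of 0.00463, 0.00117 and 0.0338, and Gsr alone lost its call without DEHP replicate 1 (0.15, adjusted p = 0.104) or replicate 6 (0.19, adjusted p = 0.0809). These comparisons share libraries with those against vehicle and are not independent of them. Both also use the same ethanol libraries, so they are not independent of each other.

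Beyond the 10 genes, 32 other textbook NRF2 targets were all tested. In DEHP against vehicle 21 rose and 1 fell (median log2 change 0.59, against -0.02 for all genes), in the combination 22 rose and 1 fell (0.71, against -0.01), and in ethanol 6 rose and 1 fell (0.13, against -0.01), or 2 and 2 on TPM values and 4 and 2 without vehicle replicate 1. Of all genes tested, 26%, 36.8% and 28.8% were called in these 3 comparisons, and 14.4%, 19.3% and 14.2% were called higher. Ugdh, which makes the UDP-glucuronate used in glucuronidation, went from 67.8 ± 4.6 FPKM in vehicle to 130 ± 14.6 in DEHP (log2 change 0.92 ± 0.09, edgeR adjusted p = 2.18e-08). The export pump gene Abcc4 went from 0.503 ± 0.274 to 3.56 ± 1.33 FPKM (2.82 ± 0.32, adjusted p = 4.15e-07) and the glutathione transferase gene Gstm4 from 42.7 ± 7.74 to 96.4 ± 15 FPKM (1.16 ± 0.14, adjusted p = 1.46e-06). The mean of Abcc4 was below the 1 FPKM minimum in vehicle and in ethanol (0.37 ± 0.153 FPKM). It was therefore tested because of its level in the libraries with DEHP, and its place among the 21 is no separate support. The gene that fell was another glutathione transferase, Gstp1, which rose in ethanol from 3774 ± 735 to 5801 ± 578 FPKM (0.68 ± 0.17, adjusted p = 0.00526) and stood at 1591 ± 339 FPKM in DEHP. Gstp1, Gstm4 and the ferritin genes have close copies in the genome, and how shared reads were split is not given, so their levels are uncertain. Several of these genes also belong to other lists here, and some answer to PPARalpha as well as to NRF2, whose parts were not tested.

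**Figure D4:**
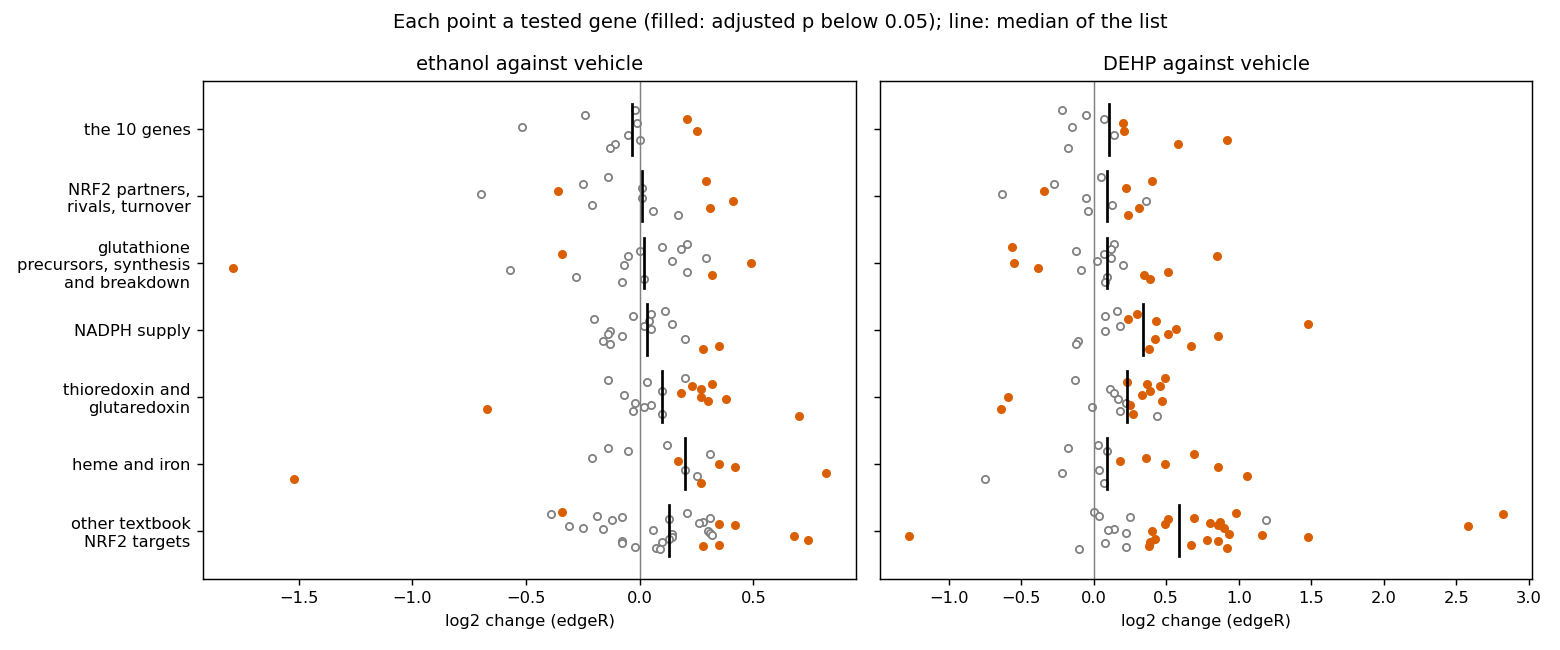
Log2 change (horizontal axes, edgeR) of every tested gene of the 10 and of the 6 wider lists in ethanol (left) and DEHP (right) against vehicle; filled points have an adjusted p below 0.05 and vertical bars mark the list medians. The median of the other textbook NRF2 targets is 0.13 in ethanol and 0.59 in DEHP, and that of the 10 genes is -0.04 and 0.11.

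The NADPH suppliers were mostly higher with DEHP. Of 16 genes tested, 10 rose and none fell in DEHP (median 0.34, with 14.4% of all genes called higher) and in the combination (0.49, with 19.3%). In ethanol 2 rose and none fell (0.03, with 14.2%), which became 1 higher and 1 lower without vehicle replicate 1 and none higher and 4 lower on TPM values. Me1, malic enzyme, went from 68.5 ± 9.49 FPKM in vehicle to 194 ± 57.8 in DEHP (log2 change 1.48 ± 0.17, edgeR adjusted p = 2.95e-07) and 253 ± 62.6 in the combination. Pgd, a dehydrogenase of the pentose phosphate pathway, went from 22.5 ± 2.92 to 41.3 ± 7.88 FPKM in DEHP (0.86 ± 0.12, adjusted p = 8.56e-06). Taldo1, transaldolase, went from 103 ± 5.3 to 166 ± 13.8 FPKM (0.67 ± 0.09, adjusted p = 3.05e-06), and Nadk, which phosphorylates NAD to NADP, from 68.4 ± 3.1 to 103 ± 15.1 FPKM (0.57 ± 0.09, adjusted p = 2.36e-05). Without the 3 libraries of other tissues 7 of 16 were called higher in DEHP and 10 in the combination, beside 1145 and 1806 of all 10697 genes.

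Around the glutathione ligase, genes were called in both directions. Of 17 genes tested of 18 listed for precursors, synthesis and breakdown, 4 rose and 3 fell in DEHP, 5 rose and 4 fell in the combination, and 2 rose and 2 fell in ethanol, or 3 and 1 without vehicle replicate 2 and none and 3 on TPM values. Beside these stand 26%, 36.8% and 28.8% of all genes called, so the ethanol count of 4 in 17 is no larger a share than that of all genes. The list medians were 0.09, 0.07 and 0.02. Gss, glutathione synthetase, which completes the tripeptide, fell from 35.1 ± 5.02 FPKM in vehicle to 24.3 ± 5.66 in DEHP (log2 change -0.55 ± 0.13, edgeR adjusted p = 0.00404) and 19.2 ± 3.21 in the combination (-0.88 ± 0.14, adjusted p = 1.95e-05), and rose to 47.3 ± 4.59 FPKM in ethanol (0.49 ± 0.13, adjusted p = 0.00754). Cbs, which starts the transsulfuration route to cysteine, fell from 292 ± 21.8 to 201 ± 17.6 FPKM in DEHP (-0.56 ± 0.08, adjusted p = 1.37e-05). Ggct and Oplah, which act one after the other on gamma-glutamyl breakdown products of glutathione, rose in DEHP by 0.85 ± 0.15 (adjusted p = 0.000218) and 0.51 ± 0.11 (adjusted p = 0.00101).

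In the thioredoxin and glutaredoxin system, beside Txnrd1, 9 of 19 genes rose and 2 fell in DEHP, 14 rose and 1 fell in the combination, and 8 rose and 1 fell in ethanol. The shares of all genes called higher were 14.4%, 19.3% and 14.2%, and the list medians were 0.23, 0.33 and 0.10 against -0.02, -0.01 and -0.01 for all genes. Txnrd2, the mitochondrial thioredoxin reductase, rose in the combination from 19.8 ± 2.41 to 28.1 ± 0.627 FPKM (log2 change 0.50 ± 0.08, edgeR adjusted p = 3.49e-05), the opposite direction to Txnrd1. The peroxiredoxin genes Prdx1 and Prdx6 rose in DEHP by 0.39 ± 0.08 (adjusted p = 0.000419) and 0.47 ± 0.09 (adjusted p = 0.00043), whereas Prdx4, whose product works in the endoplasmic reticulum, fell from 83.5 ± 4.49 to 56.5 ± 5.37 FPKM (-0.59 ± 0.08, adjusted p = 1.14e-05). These counts depended on settings. With the length trend removed, 6 rose and 2 fell in DEHP, 9 rose and 1 fell in the combination, and 3 rose and 1 fell in ethanol. Without vehicle replicate 1, 7 rose and 1 fell in DEHP, and 5 rose and none fell in ethanol. In ethanol, 5 rose and 1 fell with library size alone or an FPKM minimum of 5, and 2 rose and 3 fell on TPM values.

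Some heme and iron genes were called in comparisons in which Hmox1 was not. Of 13 tested, 6 rose and none fell in DEHP, 6 rose and 1 fell in the combination, and 5 rose and 1 fell in ethanol, beside 26%, 36.8% and 28.8% of all genes called. The list medians were 0.09, 0.19 and 0.20. Slc48a1, a heme transporter, went from 17.7 ± 1.5 FPKM in vehicle to 37.4 ± 4.71 in DEHP (log2 change 1.06 ± 0.11, edgeR adjusted p = 5.72e-08), and the ferritin light chain gene Ftl1 from 4653 ± 457 to 8596 ± 1245 FPKM (0.86 ± 0.14, adjusted p = 3.67e-05). Blvrb, biliverdin reductase B, went from 137 ± 27.9 to 222 ± 30.9 FPKM (0.69 ± 0.13, adjusted p = 0.000344). In ethanol the transferrin receptor gene Tfrc fell from 6.17 ± 1.95 to 2.04 ± 0.618 FPKM (-1.52 ± 0.30, adjusted p = 0.000762) and Slc40a1, the iron exporter ferroportin, rose from 22.7 ± 3.93 to 38.2 ± 7.78 FPKM (0.82 ± 0.13, adjusted p = 5.21e-05). Slc40a1 is also among the 13 macrophage markers above. In ethanol, 3 were higher and 1 lower without vehicle replicate 1, without the 3 libraries of other tissues, with the compared groups alone and with the length trend removed, and on TPM values 1 was higher and 2 were lower.

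Among 12 tested of 13 partners, rivals and turnover factors of NRF2, 4 rose and 1 fell in DEHP and in the combination, and 3 rose and 1 fell in ethanol. With 26%, 36.8% and 28.8% of all genes called, the counts of the combination and of ethanol are near the share over all genes. The list medians were 0.09, 0.12 and 0.01. Sqstm1, the autophagy receptor p62 that binds KEAP1, rose from 245 ± 14 FPKM in vehicle to 293 ± 18.5 in DEHP (log2 change 0.24 ± 0.08, edgeR adjusted p = 0.0229) and 303 ± 14.1 in the combination (0.30 ± 0.08, adjusted p = 0.00319). Mafk, a small MAF partner of NRF2, rose in the combination from 6.02 ± 0.577 to 8.59 ± 1.4 FPKM (0.51 ± 0.16, adjusted p = 0.0118). Btrc, which directs NRF2 to a second ubiquitin ligase, rose in DEHP by 0.40 ± 0.10 (adjusted p = 0.0049), and Gsk3b, the kinase that primes NRF2 for it, fell by 0.34 ± 0.11 (adjusted p = 0.0248). These counts were fragile: without the 3 libraries of other tissues 1 rose and 1 fell in DEHP and in ethanol, as they did in DEHP without DEHP replicate 1 or 6 and in ethanol without vehicle replicate 1 or 2, and without vehicle replicate 1, 2 rose and 1 fell in DEHP. In the combination 3 rose and none fell with a replicate block, and 4 rose and none fell without vehicle replicate 1. In ethanol none was called with the FPKM minimum at 5, and on TPM values none was higher and 5 were lower.

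The tested genes whose scaled log2 counts followed these genes most closely over the 24 libraries were ranked by Pearson's r, as a description over libraries that share groups and depth. Srxn1 was closest to Pgd (r = 0.93), Krt8 and Mrap (both 0.92), and Gsr to Abhd6, Spon2 and Cpt2 (each 0.90). Keap1 was closest to Dgkz and Flii (0.88) and Nqo1 to Ywhaz (0.86), Hadh and Chpt1 (0.85). The closest gene reached 0.80 for Hmox1 (Fyb, with Tmsb4x), 0.78 for Txnrd1 (Actb), 0.75 for Gclc (Abcc2) and 0.71 for Nfe2l2 (Ints6).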

How the data were processed

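Per the file headers, the table that the authors deposited for a library lists NCBI genes by identifier and symbol with expected counts and FPKM values. The deposited expected counts estimate the reads of each gene and are not normalised, and 94.5% to 95.3% were whole. The deposited FPKM values scale these counts by transcript length and library total, per the file headers and a check against the counts. The submitters' processing notes name Cuffdiff and the builds mm10 and GRCm38. The aligner, the counter, its use of strand and its handling of reads shared between similar genes are not given in the sources that were used. A gene without a row in a library was taken as 0. Libraries were grouped by title, and coordinates and promoters are from RefSeq, GRCm38.p6.

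Genes with at least 1 FPKM in at least 6 of 24 libraries were tested (10697). Rounded expected counts were scaled by TMM factors and fitted with a mean per group by edgeR 4.0.16 under R 4.3.3 (20 residual degrees of freedom), and tested by the quasi-likelihood F test. P-values were adjusted over all genes tested (Benjamini-Hochberg), with calls at an adjusted p below 0.05. Standard errors are the unshrunken log2 change over the square root of F. The steps were run on simulated counts in which few genes were changed, in the ethanol group alone. These data differ from that setting, so the run does not show how the steps perform here. Alternatives used DESeq2 1.42.0 and limma 3.58.1 on log2 values of FPKM or TPM with a pseudocount of 1 or 0.1, other scalings and filters, a replicate block, the compared groups alone, removal of length trends, and libraries left out. No pair of libraries of a group agreed within sampling noise (chi-square per gene at least 6.57).

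The members and lists were chosen with earlier results of these data known. The 9 genes named first are described in every comparison in which they were called. Of each wider list, the text draws on the called genes with the smallest adjusted p, at most 4 in comparisons against vehicle and 2 in others. The 3 genes of most like pattern skip predicted genes. In the text, 1 gene of the 10 and some genes that these rules pick are not reported here.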

Additional observations from a re-analysis of the deposited data

Results flagged for a closer look

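Among 40 sets of 6 libraries, 1 for each of the 10 genes in each group, 2 held a library set apart from the other 5 by more than Dixon's 95% critical value for the gap over the range. Chance alone marks about 1 in 20 such sets. Srxn1 in vehicle replicate 2 stood at 24.01 FPKM, with the next library at 15.81 FPKM (gap over range 0.71). Hmox1 in DEHP replicate 1 stood at 13.89 FPKM, with the next at 8.99 FPKM (0.68). That library also had the highest macrophage marker sum of all libraries, 513 FPKM.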

How the results depend on the processing

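Nqo1 and Srxn1 kept their calls in DEHP and in the combination, against vehicle and against ethanol, in all 18 alternatives, as did Gsr in the combination against both and Keap1 in the combination against vehicle. For Nqo1, the alternative with the FPKM minimum of 5 is no separate support. Its highest values were 3.54 FPKM in vehicle and 3.48 FPKM in ethanol. It was therefore tested there because of its level in the libraries with DEHP. Of 1124 values of 9 genes under alternatives, 40 lost a call, 17 gained one and 42 changed sign, the last all in comparisons where the gene was called in neither fit. The cause of these shifts was not tested.

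Of the 10 genes, 4 were called in DEHP against vehicle, beside 2778 of all 10697 tested. With no filter 2 were called (2479 of 17524 genes), as with the compared groups alone (2232 of 10697) and without the 3 libraries of other tissues (2100 of 10697). In the last 2 settings the count is near the share over all genes. Leaving out 1 library (vehicle replicate 1 or 2, DEHP replicate 1 or 6, or combination replicate 6) gave 2 to 4, beside 2179 to 2779 of all genes. In ethanol against vehicle 2 were called, beside 3079 of all genes. With no filter 1 was called (2862 of 17524 genes), as with an FPKM minimum of 5 (2155 of 6856) and with length trends removed (2561 of 10697). Leaving out single libraries gave 1 to 2, beside 2635 to 3230 of all genes. On TPM values, 5 in place of 3 were called in DEHP against ethanol, beside 3523 in place of 2750 of all 10697 genes. Leaving out DEHP replicate 1 or vehicle replicate 2, and library totals over all genes, were chosen after seeing the data.

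Over all genes, the 13 calls of the combination against DEHP became 44 with DESeq2, 7 and 6 with limma on FPKM (pseudocounts of 1 and 0.1), 1 with no filter, 6 with the compared groups alone, 2 with length trends removed, 8 without the 3 libraries and 4 to 18 leaving out single libraries (4 without DEHP replicate 6). The 686 interaction calls became 365 without the 3 libraries. The replicate numbers do not pair the samples (36 same-number pairs, r from -0.21 to 0.21, 6 above 0.1, 6 best matches). A replicate block gave 5 calls in the combination against DEHP and changed no call of the 10 genes but that of Gsr in DEHP against vehicle (0.19, adjusted p = 0.0636). The share of calls that were higher went from 49.5% to 14.8% on TPM values in ethanol against vehicle, from 54.4% to 78.7% in the combination against ethanol, from 53.4% to 84.7% in DEHP against ethanol, from 38.5% to 20% in the combination against DEHP and from 51.7% to 78.5% in the interaction; with library size alone it was 31.1%, 70.6%, 71.9%, 40% and 68.8%.

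Sign changes of uncalled log2 changes were as follows. In ethanol against vehicle, Nqo1 (0.00) was -0.08 with library size alone and with length trends removed, -0.07, -0.11 and -0.16 with limma on FPKM with pseudocounts of 1 and 0.1 and on TPM, -0.01 with totals over all genes and without the 3 libraries, -0.04 with the FPKM minimum of 5, -0.02 with the compared groups alone, and -0.12 to 0.00 leaving out single libraries. Srxn1 (-0.11) was -0.16 to 0.05 leaving out single libraries, highest without vehicle replicate 2. Gclm was -0.00 in DEHP against vehicle and 0.02 in the combination against DEHP without the 3 libraries, and in the combination against vehicle -0.01 on TPM, -0.03 with the FPKM minimum of 5 and with length trends removed, and -0.02 to 0.06 leaving out single libraries. Hmox1 was 0.06 in DEHP and 0.14 in the combination against vehicle without the 3 libraries, and -0.33 to 0.00 and -0.12 to 0.01 leaving out single libraries. In the combination against DEHP it was -0.00 with a pseudocount of 0.1 and with the FPKM minimum of 5, -0.04 on TPM, -0.02 with length trends removed, and -0.04 to 0.21 leaving out single libraries. In the combination against ethanol, Nfe2l2 was 0.02, 0.01, 0.02 and 0.07 with library size alone, limma on FPKM (pseudocounts of 1 and 0.1) and TPM, and Txnrd1 0.03 on TPM. In DEHP against ethanol, with the same 4 settings, Keap1 was 0.05, 0.03, 0.03 and 0.12, Txnrd1 0.03, 0.03, 0.03 and 0.12, and Gclm 0.04 on TPM. Depth limits Nqo1 most of the 9 genes.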
